A study of Rattus norvegicus with 6 samples.

Results

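The genes of fat cells that make, store and release triglyceride were followed in the Achilles tendon of newborn rats. The set held 10 genes: Plin1, Cidec, Lipe, Lpl, Scd, Gpd1, Pck1, Fasn, Dgat2 and Acaca. They were chosen by name, as genes of adipocyte lipid synthesis and storage. Earlier results of these data were known by then, so counts over these genes are descriptions. All 10 were measured among 14217 genes that had a probe set of their own on the array. Untreated tendons were dissected on post-natal day 1 or post-natal day 7, with 3 Affymetrix expression arrays per age. RNA of at least 2 animals was pooled for each array, so the spread given here is that between pools. The labels do not state the strain, sex or feeding state of the animals. Whole tendon was profiled, so a changed share of fat cells or other cells and a changed transcript amount per cell cannot be told apart.

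Triglyceride is the storage form of fatty acids. Fat cells either take fatty acids from blood lipoproteins, which lipoprotein lipase opens at the vessel wall, or make them from citrate by way of acetyl-CoA carboxylase and fatty acid synthase. The fatty acids are joined to glycerol phosphate in a short chain of acylations, and the product is packed into lipid droplets with a protein coat. The coat protein perilipin 1 holds back hormone-sensitive lipase and adipose triglyceride lipase until a signal to release fatty acids arrives.

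The labelled tissue was checked first. Tenomodulin, Tnmd, a marker of tendon cells, read between 2279 and 4465 on the day 1 arrays and between 4925 and 6822 on the day 7 arrays, far above a bacterial trp transcript that rat RNA lacks and that read between 3.74 and 4.76. The median intensity was 20.5 to 21.1 on every array. Muscle transcripts were abundant at both ages, with Acta1, skeletal actin, between 10321 and 13294. Markers of epidermis stood apart on day 1 replicate 1, where the keratin Krt1 read 831 against 8.78 to 13.7 on the other 5 arrays. The summed intensity of 7 measured epidermal genes was 121 to 5004 on day 1 and 132 to 243 on day 7.

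All 10 genes read higher on day 7, and for each of them all 3 day 7 arrays lay above all 3 day 1 arrays, an arrangement shown by 14.0% of all genes, while 19.1% had all day 7 arrays below. Of the 10, 7 rose at an adjusted p under 0.05 in limma, where 1.93% of all genes were called higher, and 0 fell, with 3.15% of all genes called lower. Those that rose were Plin1, Cidec, Gpd1, Pck1, Scd, Lipe and Lpl. Dgat2, Fasn and Acaca did not pass. All 10 were higher, and 0 lower, at an unadjusted p under 0.05. The share of all genes under that unadjusted level was not counted, here or in the fits below. The median log2 change of the 10 genes was 2.20 and that of all genes was -0.01, where a log2 change is the day 7 mean minus the day 1 mean on the scale of log2(intensity + 1). The change was not even along the pathway and did not follow the order of its steps. It ran from 0.34 for Acaca, at the entry to fatty acid synthesis, to 4.78 for Plin1 on the finished droplet. Pck1, which acts before Dgat2, was at 4.28 and Dgat2 at 1.56. The day 1 means were unlike, at 8.49 for Plin1, 25.5 for Pck1, 49.1 for Dgat2, 151 for Acaca and 694 for Lpl. The part of the starting level in the size of each change was not tested.

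**Figure D1:**
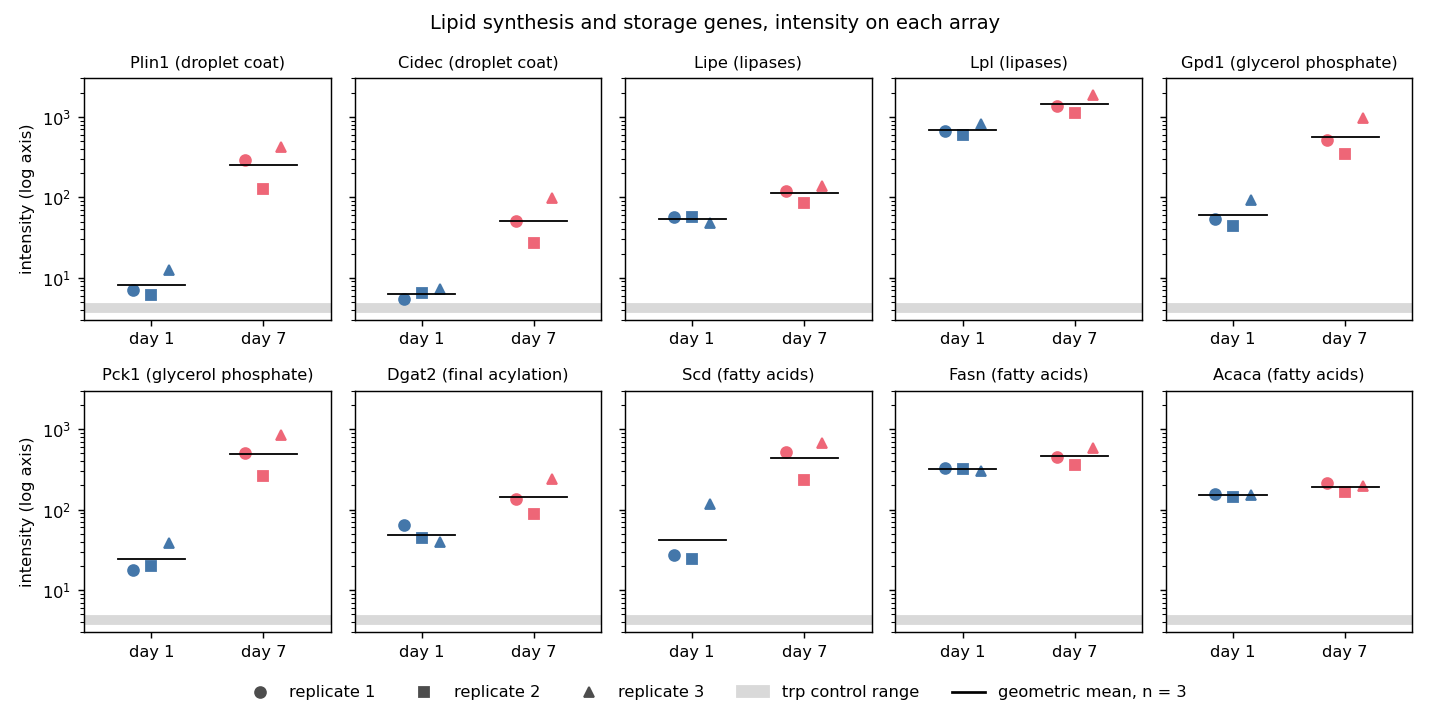
Intensity of each of the 10 genes on the 3 day 1 arrays (blue) and the 3 day 7 arrays (red), on a log axis, with replicates by marker shape, the geometric mean as a black line and the range of the trp negative control in grey. The ages do not overlap for any of the 10 genes, the gap is widest for Plin1 and Pck1, and Plin1 and Cidec start just above the negative control on day 1.

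Both droplet genes rose from a level close to background. Plin1, which encodes perilipin 1, read 6.99, 6.13 and 12.3 on day 1 replicates 1, 2 and 3, and 291, 128 and 419 on the corresponding day 7 arrays. Every day 7 array lay above every day 1 array, and the mean went from 8.49 ± 3.37 to 279 ± 146 (SD, n = 3). The log2 change was 4.78 (95% interval 3.81 to 5.75; limma adjusted p = 0.0104), and 3.46 with a constant of 16 in place of 1 (adjusted p = 0.0284). The other Plin1 probe set was dimmer and gave a smaller change of 1.16 (adjusted p = 0.0564), from 6.86 to 7.49 on day 1 to 10.7 to 25.1 on day 7, again without overlap.

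Cidec passes lipid from smaller to larger droplets and supports the large droplet of white fat cells. It read 5.40, 6.49 and 7.33 on day 1 and 51.2, 27.1 and 97.6 on day 7. All 3 day 1 arrays lay within a few units of the trp control, so the size of the change depends on the constant added before the logarithm. It was 2.83 on the log2(intensity + 1) scale (95% interval 1.93 to 3.74; adjusted p = 0.0180) and 1.62 with a constant of 16 (adjusted p = 0.0709).

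The stretch upstream of Plin1 is shown because Plin1 and Pck1 had the largest changes of the set on the log2(intensity + 1) scale. Their order is not fixed, since Plin1 was at 3.46 and Pck1 at 3.64 with a constant of 16, and with the mean of probe sets Plin1 (2.97) lay below Pck1 (4.28) and Scd (3.33). RefSeq places it in rat assembly GRCr8 on the minus strand at chr1:143086200-143086398, which covers bases -250 to -52 before the transcript start used by the RefSeq promoter table and lies outside the annotated gene. Capitals mark a CCAAT box, here on the opposite strand as ATTGG.
Plin1: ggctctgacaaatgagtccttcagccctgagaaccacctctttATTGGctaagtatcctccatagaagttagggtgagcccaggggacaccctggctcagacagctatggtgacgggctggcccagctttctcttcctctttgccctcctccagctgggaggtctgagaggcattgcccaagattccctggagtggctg
Of 33469 rat promoter windows of the same 199 bases, 28.6% held CCAAT on either strand. The stretch ends at base -52, so the bases nearer the start were not searched, and a TATA box there would have been missed. Within the stretch, none of the other motifs searched on both strands was found. They were the nuclear receptor core site AGGTCA, the cAMP response element core TNACGTCA and the TATA box as TATAAA or in its variant TTTAAA. The E-box CACGTG, the GC box GGGCGG and the bases TTGCNNCAA were also searched and absent. For C/EBP only TTGCNNCAA was searched, so other spellings of its site were not looked for. A match of letters is a description and not a measured binding site.

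Glycerol phosphate, the backbone onto which fatty acids are joined, comes from glycolysis through Gpd1 or from smaller precursors through Pck1. Both genes rose. Pck1, the cytosolic phosphoenolpyruvate carboxykinase, read 17.8, 20.2 and 38.5 on day 1 and 508, 265 and 855 on day 7. Its log2 change was 4.28 (95% interval 3.29 to 5.27; adjusted p = 0.0111), a 19.4-fold rise on the log2(intensity + 1) scale. Replicate 3 was the highest on day 1 and still lay below every day 7 array.

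The Pck1 promoter is shown for the same reason as that of Plin1. It lies in GRCr8 on the plus strand at chr3:182348322-182348571, bases -250 to -1 before the start. Capitals mark, from left to right, the nuclear receptor core site AGGTCA at -144 to -139, the bases TTACGTCA at -93 to -86, which carry the core of a cAMP response element (searched as TNACGTCA), and TTTAAA at -29 to -24, a variant of the TATA box. No matches overlap each other.
Pck1: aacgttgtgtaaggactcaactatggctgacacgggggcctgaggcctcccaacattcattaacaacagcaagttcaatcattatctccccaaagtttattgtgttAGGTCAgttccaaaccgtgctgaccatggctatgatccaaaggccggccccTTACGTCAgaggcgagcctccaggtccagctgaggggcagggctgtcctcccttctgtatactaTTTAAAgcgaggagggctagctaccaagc
Among windows of 250 bases, 14.1% held AGGTCA, 2.88% TNACGTCA and 12.3% TTTAAA on either strand. The CCAAT box, the TATAAA form, the E-box, the GC box and the bases TTGCNNCAA were not in this window. Other spellings of a C/EBP site were not looked for here either. Of the 10 genes, 4 had a window in the promoter table. Those of Scd and Cidec lay inside the annotated gene and are not shown, and the promoters of Lipe, Lpl, Gpd1, Fasn, Dgat2 and Acaca were not analysed here.

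Gpd1, the cytosolic glycerol-3-phosphate dehydrogenase, read 53.6, 44.0 and 91.4 on day 1 and 520.1, 342 and 972 on day 7. The log2 change was 3.19 (95% interval 2.29 to 4.10; adjusted p = 0.0141). Its other probe set was dim, at 7.36 to 8.55 on day 1 and 10.4 to 12.4 on day 7, and changed by 0.47 (adjusted p = 0.0669), so the size of the rise rests on the brighter probe set. Other genes of this step gave no call. The other 6 measured genes of glycerol phosphate supply held 0 calls and had a median log2 change of -0.03, among them the mitochondrial isozymes Gpd2 (0.01; adjusted p = 0.983) and Pck2 (0.60; 0.136), glycerol kinase Gk (-0.11; 0.795) and the glycerol channels Aqp7 (-0.06; 0.926) and Aqp3 (-0.21; 0.797). Of these 6, 0 passed an adjusted p under 0.05 in limma and 2 an unadjusted p under 0.05, Pck2 and pyruvate carboxylase, Pc, which makes the oxaloacetate that Pck1 uses (1.11; adjusted p = 0.0585).

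Dgat2 encodes an enzyme of the last acylation, which turns diglyceride into triglyceride. It read 63.7, 44.3 and 39.2 on day 1 and 135, 89.2 and 244 on day 7. The ages did not overlap, but the day 7 arrays were spread widely, and the log2 change of 1.56 (95% interval 0.76 to 2.35) missed the threshold (adjusted p = 0.0526). It passed in 5 of 15 alternatives, among them array weights (0.0426). Its other probe set also read higher, with a log2 change of 0.90 (adjusted p = 0.0737).

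Of 13 other measured genes of triglyceride assembly, 2 rose and 0 fell at an adjusted p under 0.05 in limma. At an unadjusted p under 0.05, 3 were higher and 2 lower. The median log2 change of the 13 was 0.00. Agpat2, the acyltransferase of the second acylation, which is required for fat cells to form, read 36.2, 38.5 and 40.9 on day 1 and 139, 110.2 and 307 on day 7 (log2 change 2.09; adjusted p = 0.0243). Lpin1, the phosphatase that makes diglyceride, read 29.7 to 33.3 on day 1 and 56.7 to 66.6 on day 7 (0.95; 0.0141). Their relatives had smaller values that did not pass, with -0.26 for Agpat1, -0.68 for Agpat3, -0.13 for Agpat4, -0.22 for Agpat5, 0.00 for Lpin2 and 0.25 for Lpin3. Dgat1, which catalyses the same last step as Dgat2, had a log2 change of 0.67 (adjusted p = 0.104).

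In fatty acid synthesis the desaturase rose and the chain-building enzymes had smaller changes. Scd, stearoyl-CoA desaturase, which makes monounsaturated fatty acids, read 27.1, 24.2 and 116.8 on day 1 and 524, 234.5 and 679 on day 7. Day 1 replicate 3 was several times higher than the other day 1 arrays, and the interval of the log2 change of 3.33 was accordingly the widest of the set, at 1.91 to 4.74 (adjusted p = 0.0336). Without that array the change was 4.04 (adjusted p = 0.0268), and with an intensity trend and robust variances Scd was not called (0.0889).

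Fasn, fatty acid synthase, read 329, 317 and 300.5 on day 1 and 456, 363 and 590.1 on day 7. The log2 change of 0.54 (95% interval 0.14 to 0.95) did not pass (adjusted p = 0.123). Its other probe set, at 58.6 to 65.9 on day 1 and 103 to 157 on day 7, did pass with a change of 1.03 (adjusted p = 0.0233), as did the mean of both (0.79; 0.0463). The call for Fasn therefore depends on the probe set. Acaca, acetyl-CoA carboxylase, the committed step, read 157, 143 and 154 on day 1 and 211, 167 and 197 on day 7, with a log2 change of 0.34 (95% interval 0.05 to 0.62; adjusted p = 0.163). Its other probe set read 4.55 to 6.54 over the 6 arrays, close to the negative control, and carries little information.

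Beyond Scd, 3 of 15 other genes of fatty acid synthesis rose and 0 fell at an adjusted p under 0.05 in limma. At an unadjusted p under 0.05, 7 were higher and 0 lower. The median log2 change of the 15 was 0.13. Thrsp, a regulator of lipogenesis, read 6.68, 9.23 and 9.49 on day 1 and 158, 110.3 and 121 on day 7. Its day 7 arrays lay close together, and its log2 change of 3.79 had a standard error of 0.18 (adjusted p = 8.95e-04). Like Plin1 and Cidec it was close to background on day 1, and its change was 2.565 with a constant of 16. Srebf1, a transcription factor of the SREBP family that drives lipogenic genes, rose by 0.91 (adjusted p = 0.0238), and the citrate carrier Slc25a1 by 0.77 (0.0345). Acly, which cleaves citrate to acetyl-CoA, had a log2 change of 0.09 (0.756), the elongase Elovl6 one of -0.11 (0.826) and malic enzyme Me1 one of -0.15 (0.560). Scd2, a close relative of Scd, read 314 to 383 on day 1 and 869, 435 and 834 on day 7 (0.99; 0.0760). Binding of Scd2 RNA to the Scd probes was not tested.

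Both lipases rose, with log2 changes of 1.04 and 1.05. Lipe, hormone-sensitive lipase, which cuts diglyceride inside the cell, read 56.5, 56.5 and 48.6 on day 1 and 120.1, 84.9 and 136 on day 7 (log2 change 1.04, 95% interval 0.63 to 1.46; adjusted p = 0.0293). The other Lipe probe set overlapped between the ages, at 42.2 to 60.7 on day 1 and 55.1 to 69.8 on day 7, with a change of 0.34 (adjusted p = 0.265). Lpl, lipoprotein lipase, read 672, 594 and 816 on day 1 and 1382, 1119.9 and 1885 on day 7 (1.05, 95% interval 0.58 to 1.53; adjusted p = 0.0383). Lpl was already well above background on day 1, so its change does not start from the floor as those of Plin1 and Cidec do.

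Other genes of lipolysis had smaller changes. Of 10 besides Lipe, 0 passed in limma and 6 had an unadjusted p under 0.05, 5 of them higher and 1 lower on day 7. Their median log2 change was 0.33. Pnpla2, adipose triglyceride lipase, which takes the first fatty acid, had a log2 change of 0.52 (adjusted p = 0.0945), its coactivator Abhd5 one of 0.46 (0.0512) and monoglyceride lipase Mgll one of 0.18 (0.504). The beta-adrenergic receptor Adrb1 had one of 0.35 (0.0892), near background. The lower one was Prkaca, a catalytic subunit of protein kinase A, the kinase that activates lipolysis, at 623 to 954 on day 1 and 367 to 539.8 on day 7 (-0.77; 0.0720). Around lipoprotein lipase, 2 of 14 other genes fell and 0 rose at an adjusted p under 0.05 in limma. At an unadjusted p under 0.05, 4 were lower and 2 higher. Angptl4, a secreted inhibitor of lipoprotein lipase, read 228, 508 and 345 on day 1 and 80.8, 68.5 and 116 on day 7, so that it fell by 1.97 in log2 units (limma adjusted p = 0.0222). The ages did not overlap, and the direction was opposite to that of its target Lpl. Acsl3, an acyl-CoA synthetase, fell by 0.94 (0.0282). Its relatives did not pass, with a log2 change of -1.05 for Acsl4 (0.0580) and of 0.95 for Acsl1 (0.112), the form of fat cells. Gpihbp1, the anchor of lipoprotein lipase on capillaries, had one of 0.00 (0.991) and the fatty acid carrier Cd36 one of -0.08 (0.842).

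**Figure D2:**
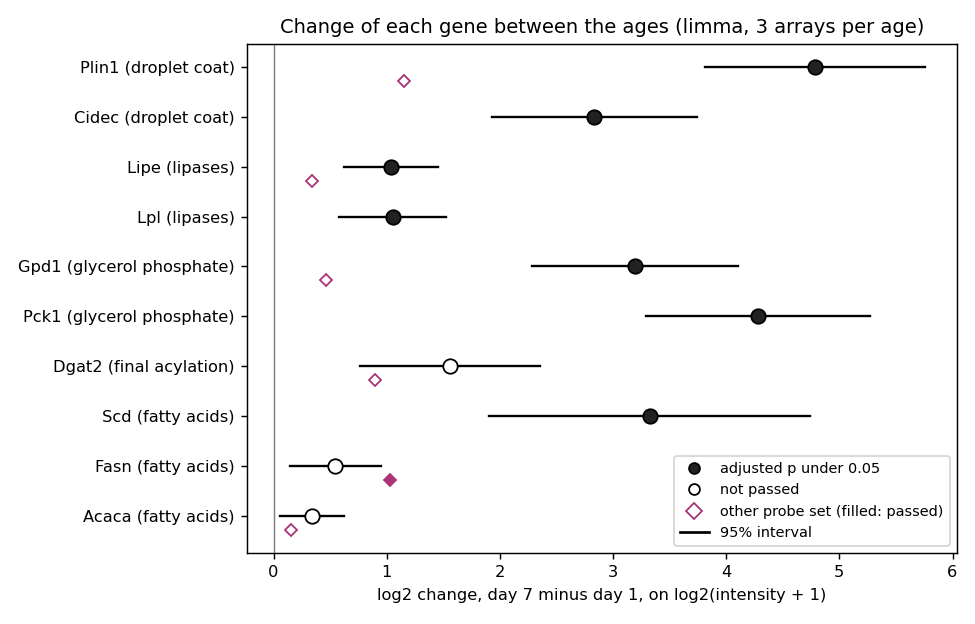
Log2 change of each of the 10 genes, day 7 minus day 1 on the log2(intensity + 1) scale, with the 95% interval of the limma fit as a bar, filled circles for an adjusted p under 0.05 and diamonds for the other probe set of the gene. The changes run from 0.34 for Acaca to 4.78 for Plin1, and the Fasn diamond is the single filled one, at 1.03.

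The steps were set against each other through 8 pairs of genes, by taking the difference of their log2 values within each array and comparing it between the ages. With 3 arrays against 3, the two-sided exact permutation test cannot give a p below 0.10, so none of these comparisons can pass the threshold. The Plin1 change exceeded that of Lipe by 3.74 (95% interval 2.46 to 5.02), that of Cidec by 1.95 (1.26 to 2.63), and the Cidec change exceeded that of Lipe by 1.79 (0.75 to 2.84). In each of these 3 pairs the within-array differences of the ages did not overlap, with an exact p of 0.1, or 0.133 adjusted over the 8 pairs. The same p and separation were found for Gpd1 over Dgat2 (1.64, interval 0.39 to 2.88), Pck1 over Gpd1 (1.09, 0.63 to 1.54) and Scd over Fasn (2.78, 0.56 to 5.004). For Gpd1 and Dgat2 the SD of the within-array difference was 0.775 on day 1 and 0.036 on day 7, which is far from equal.

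Differences for the other 2 pairs overlapped between the ages. Lipe and Lpl differed in their changes by -0.01 (interval -0.61 to 0.59; exact p = 1.0), and Fasn exceeded Acaca by 0.21 (-0.25 to 0.67; exact p = 0.3, adjusted 0.343). An interval that covers 0 does not show equal changes: for the lipases it leaves room for about 0.6 in either direction. Since Plin1 and Cidec lie close to background on day 1, a change from there is compressed by the added constant, which makes their differences from Lipe smaller with a constant of 16 (2.59 for Plin1 and 0.75 for Cidec).

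The choice of probe set also moved several of these differences. When all probe sets of a gene were averaged, Plin1 exceeded Cidec by 0.14 (exact p = 0.5) and Gpd1 exceeded Dgat2 by 0.60 (exact p = 0.2), and in both pairs the separation of the ages was lost. Plin1 then exceeded Lipe by 2.28. Pck1 exceeded Gpd1 by 2.45 with the mean of probe sets and by 0.73 with a constant of 16. Lipe changed by less than Lpl with the mean of probe sets, by a difference of -0.36, and Fasn exceeded Acaca by 0.54, each with an exact p of 0.1, the lowest that 3 arrays against 3 allow.

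Transcripts of droplet proteins moved in both directions. Of 12 other measured genes of the droplet coat and droplet growth, 2 rose, 1 fell and the median log2 change was 0.18. G0s2, an inhibitor of adipose triglyceride lipase, read 61.7 to 81.3 on day 1 and 158, 155 and 312 on day 7 (1.49; adjusted p = 0.0313). Fitm2, which helps droplets bud from the endoplasmic reticulum, rose by 0.77 (0.0440), and Plin4, another perilipin of white fat, had a log2 change of 0.91 (0.0579).

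Plin5, the perilipin of oxidative tissues such as muscle, fell by 1.42 in log2 units (limma adjusted p = 0.0415), from 146, 88.6 and 174 on day 1 to 35.7, 64.7 and 48.7 on day 7. Cidea, the relative of Cidec found in brown fat and in some muscle, read 217, 196 and 393 on day 1 and 109.99, 186 and 108 on day 7 (-0.97; 0.117). Fitm1, the muscle form of Fitm2, had a log2 change of -0.98 (0.178). On day 7 all 3 genes were highest on replicate 2, as were muscle transcripts such as Ckm, muscle creatine kinase (3466.5, 5483 and 2944). Of 17 muscle markers 5 fell in limma (Myh3, Myh8, Ryr1, Myod1 and Myog) and 1 rose (Myh2). At an unadjusted p under 0.05, 12 were lower and 1 higher, and the median log2 change was -0.81. Among those that did not pass were Acta1 (-0.13), Myh1 (0.26) and Ckm (-0.92). The summed intensity of the 17 was 55030 to 67813 on day 1 and 34286 to 49829 on day 7. The part of muscle tissue in the values of Plin5, Cidea and Fitm1 was not tested.

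Cholesterol synthesis, which shares the SREBP family of regulators with fatty acid synthesis, held few changes. Of 14 measured genes 1 rose, Insig1, a sterol-sensing retention protein (0.96; adjusted p = 0.0415), 0 fell (0 at an adjusted p under 0.05 in limma and 1 at an unadjusted p under 0.05), and the median log2 change was -0.03. Srebf2, the SREBP of the cholesterol pathway, had a log2 change of -0.54 (0.0526).

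**Figure D3:**
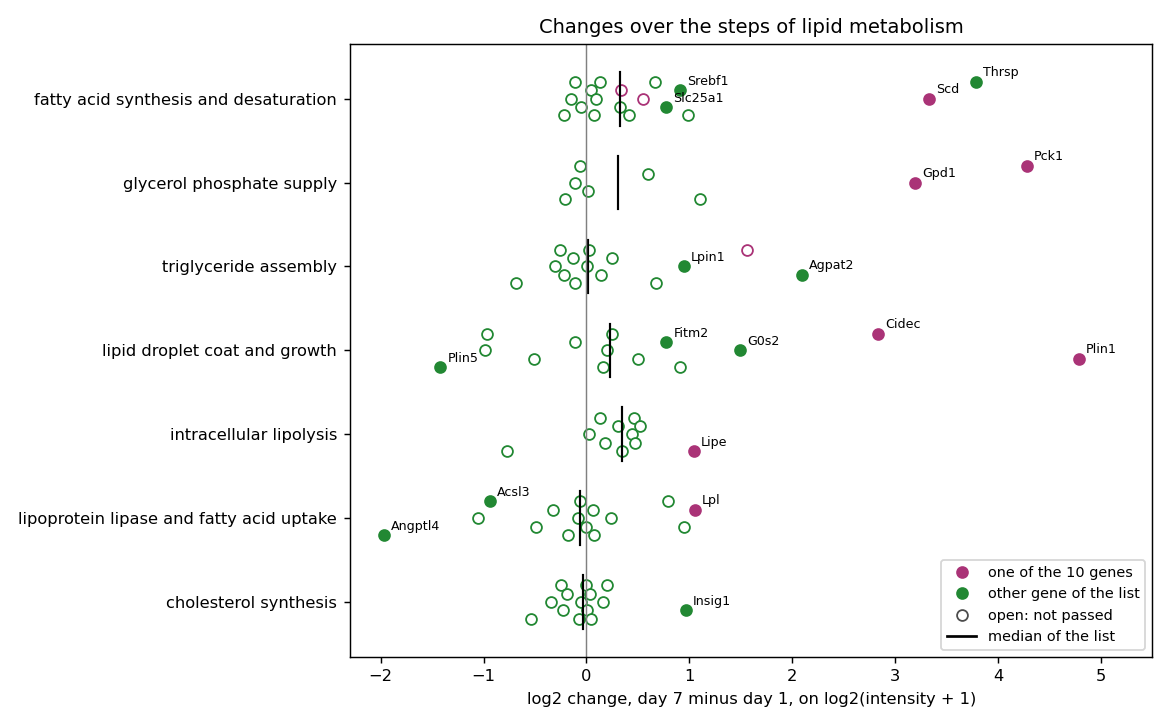
Log2 change, day 7 minus day 1, of every measured gene in 7 lists of lipid metabolism (1 row each), with the 10 genes in purple, other genes in green, filled circles for an adjusted p under 0.05 and the median of each list as a black line. The list medians lie between -0.06 and 0.35, and the filled points to the far right are Plin1, Pck1, Thrsp, Scd, Gpd1 and Cidec.

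The pools of one age differed among themselves, and the 10 genes differed together. Within day 7, all 10 genes were lowest on replicate 2, against 30.0% of all genes and 43.1% of the genes called higher, and 9 of 10 were highest on replicate 3 (Acaca on replicate 1), against 28.7% and 30.7%. The distance between the highest and the lowest day 7 array, on the log2 scale, was 1.81 for Cidec, 1.70 for Plin1, 1.69 for Pck1, 1.53 for Scd, 1.51 for Gpd1 and 1.44 for Dgat2. It was 0.75 for Lpl, 0.70 for Fasn, 0.68 for Lipe and 0.34 for Acaca. The genes with the larger changes between the ages thus also varied more among the day 7 pools, which is a description, as both quantities use the day 7 arrays. Within day 1, 6 of the 10 were highest on replicate 3 (Plin1, Cidec, Lpl, Scd, Gpd1 and Pck1).

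Markers of fat cells were read on the same arrays. Of 10 measured genes of adipocyte identity, 5 rose in limma and 0 fell (1, Cebpb, at an unadjusted p under 0.05, with a log2 change of -0.82). Those that rose were Adipoq, Cfd, Cebpa, Rbp4 and Lpin1, and the median log2 change was 1.14. Adipoq, adiponectin, read 8.47, 9.72 and 13.5 on day 1 and 385, 188 and 477 on day 7. Pparg, the nuclear receptor that directs fat cell formation, read 15.3 to 25.8 on day 1 and 56.8, 28.6 and 67.9 on day 7 (1.33; adjusted p = 0.0669). Fabp4, the fatty acid carrier of fat cells, overlapped between the ages (0.79; 0.135), and leptin, Lep, read 4.99 to 6.82 over the 6 arrays, near the negative control. Summed over the list the intensity was 1297 to 1470 on day 1 and 2079 to 3933 on day 7. The brown fat marker Ucp1 read 4.48 to 5.79, at the level of the negative control, and of 9 brown fat genes 0 passed in limma (1 at an unadjusted p under 0.05). Albumin, Alb, of liver, where Pck1, Fasn and Scd are also active, read 8.03 to 14.1, and of 7 liver genes 0 passed (0 at an unadjusted p under 0.05).

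Other tissues also differed between the day 7 arrays. The median deviation of 17 muscle genes from the mean of the 6 arrays was -0.50, -0.01 and -0.82 on day 7 replicates 1, 2 and 3, and that of 8 Schwann cell and nerve genes was 0.61, -0.47 and 0.96. The median over the 10 lipid genes was 1.05, 0.35 and 1.92 on the same arrays. The myelin gene Mbp read 1890 on replicate 1 and 3422 on replicate 3 but 81.1 on replicate 2, against 41.1 to 143 on day 1. Summed over the nerve list the intensity was 2499 to 2750 on day 1 and 2991 to 9743 on day 7. The 3'/5' ratio of beta-actin, a measure of RNA integrity, was highest on day 7 replicate 3, at 3.35 against 1.80 to 2.85 on the other 5 arrays. The part of nerve or muscle content and of RNA quality in the changes of the 10 genes was not tested.

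**Figure D4:**
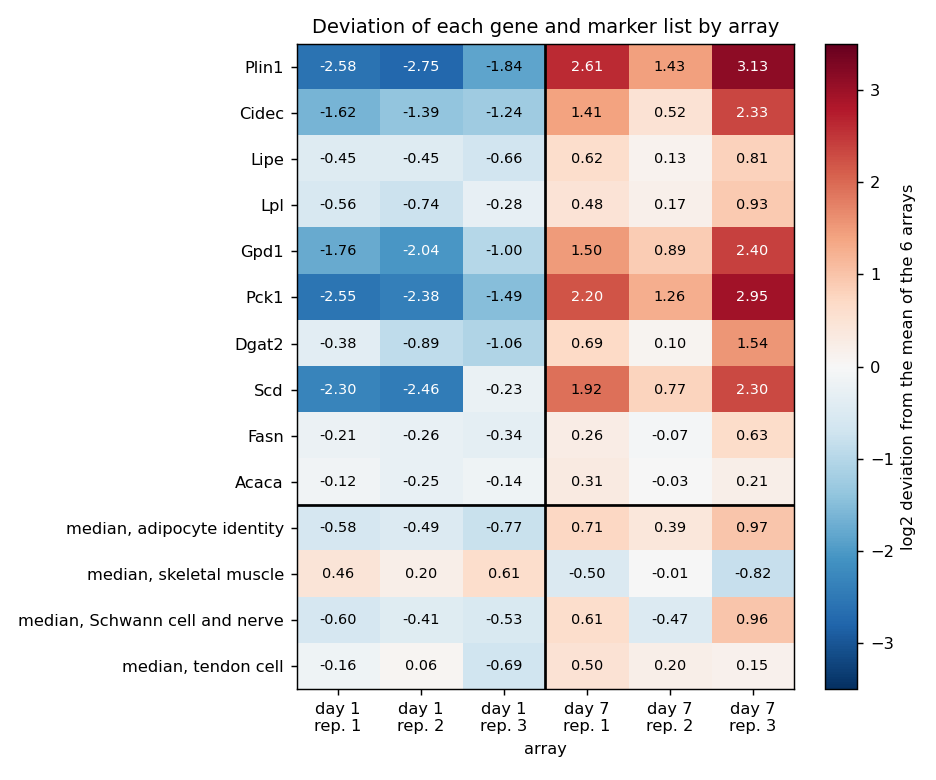
Deviation of each of the 10 genes from its own mean over the 6 arrays, in log2 units, by array (upper rows), with the median deviation of 4 marker lists (lower rows). All 10 genes are lowest on replicate 2 among the day 7 arrays, where the muscle median is -0.01 and the nerve median -0.47.

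With so few arrays, the calls depend on which are included. Without day 7 replicate 1, 0 of the 10 genes passed in limma (9 at an unadjusted p under 0.05; adjusted p from 0.0679 to 0.361), although all 10 were still higher. Only 4 genes of the whole array passed in that fit. Without day 1 replicate 1, the array with epidermal signal, Plin1 and Pck1 passed. That fit called 26 genes of the whole array higher and 37 lower, against 274 and 448 with all arrays. Without day 7 replicate 3 those that passed were Plin1, Cidec, Gpd1 and Pck1, and without day 1 replicate 2 they were joined by Lipe. Over the whole array, 87 genes were higher and 79 lower in the former fit, and 271 and 382 in the latter. Without day 1 replicate 3 the calls were Plin1, Cidec, Scd, Gpd1 and Pck1, with 61 genes higher and 107 lower over the whole array. Without day 7 replicate 2, 8 of the 10 genes passed, Dgat2 among them (adjusted p = 0.0324), with 200 genes higher and 377 lower over the whole array. In these 6 fits the log2 change of Plin1 lay between 4.41 and 5.26, that of Pck1 between 3.87 and 4.72, that of Lipe between 0.90 and 1.24 and that of Acaca between 0.26 and 0.43.

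The genes with the profiles nearest to Plin1 and to Lipe were found by the Euclidean distance of log2 values, each centred on its own mean over the 6 arrays. Nearest to Plin1 were Adipoq at 0.44, Pck1 at 0.70, Thrsp at 1.76, Gpd1 at 1.99 and Scd at 2.09. Nearest to Lipe were Srebf1 at 0.24, Mtarc1 at 0.27, Mrap at 0.32, Abcg1 at 0.32 and Pex11a at 0.35. Among the 10 genes Lpl was the nearest to Lipe, at 0.53, and Acaca the farthest from Plin1, at 5.58. This distance grows with the size of the change, so it orders genes by size as much as by shape.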

How the data were processed

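The deposited table holds linear intensities, 1 for each probe set on each array. The submitters' processing notes name MAS5 and RMA with no role or version, and how background was corrected and arrays were scaled is not given in the sources used here. After 57 controls were removed, 31042 of 31099 probe sets were tested. The platform annotation named 1 gene for 20826 of them, several for 436 and none for 9780. A gene was represented by its probe set with the highest mean log2(intensity + 1) over the 6 arrays, among probe sets naming that gene alone.

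Day 7 was compared with day 1 on log2(intensity + 1) with limma's lmFit and eBayes (limma 3.58.1, R 4.3.3), as a two-sided test. P-values were adjusted by Benjamini-Hochberg across all 31042 probe sets, with a threshold of 0.05. The code was tested on simulated data. Pairs of genes were compared by an exact permutation test (scipy 1.17.1). Their intervals came from a Student t with pooled variance. The 10 genes, the lists, the pairs and the alternatives were chosen with earlier results of these data known, so counts over them are descriptions.

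Named besides the 10 genes were up to 4 genes per pathway list with the smallest adjusted p, list genes that passed, markers that define a tissue, and the 5 nearest profiles of Plin1 and of Lipe. Chosen after their values were seen were Acly, Elovl6, Me1, Aqp7, Gpd2, Agpat1, Agpat4, Agpat5, Lpin2, Lpin3, Mgll, Gpihbp1, Cd36, Cidea, Fitm1, Ckm, Krt1, Pparg, Lep, Fabp4 and Cebpb. The lists also held markers of cartilage, macrophages and endothelium. Of 8 cartilage genes 1 rose (median log2 change 1.08), of 10 macrophage genes 1 rose (-0.25) and of 8 endothelial genes 0 passed (0.13). Of 9 tendon cell genes 2 rose (0.51). Promoter sequences are from RefSeq (GRCr8), and all 10 gene identifiers matched its gene table. For arrays, their number limits the precision. Same-numbered arrays did not deviate together (correlations of 0.05, -0.25 and -0.14), so the replicate number was not used as a block.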

Additional observations from a re-analysis of the deposited data

How the results depend on the processing

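All 10 genes read higher on day 7 under each of the 15 alternatives in which they were tested (Cidec, too dim, was left out of the fit on brighter probe sets), and the count of calls is what moved. It was 7 as reported and lay between 7 and 8 with quantile normalization, centring on array medians, brighter probe sets, an intensity trend, array weights, the mean of probe sets and without both arrays numbered 2. The genes called were not the same: with the intensity trend Scd was lost (adjusted p = 0.0889) and Dgat2 gained (0.0485). It was 3 with a pseudocount of 16 (Plin1, Gpd1 and Pck1), in a fit that called 182 genes higher and 393 lower over the whole array. The changes of the genes lost there were 1.62 for Cidec, 0.87 for Lipe, 1.04 for Lpl and 2.89 for Scd (adjusted p from 0.0540 to 0.0709), and the cause was not tested. Fits without 1 array called between 4 and 271 genes higher and between 0 and 382 lower over the whole array. For the 10 genes, leaving out 1 array gave counts from 0 to 8, and the cause was not tested. With the replicate number as a block it was 4, in a fit that calls 25 genes higher and 8 lower over the whole array, and the numbers do not pair the samples. No gene of the 10 was called lower under any of these settings. With the mean of probe sets the change of Plin1 was 2.97 and that of Gpd1 1.83. The difference between Lipe and Lpl, -0.01 as reported, changed sign with quantile normalization (0.017) and without both arrays numbered 2 (0.15), and lay between -0.207 and 0.13 without 1 array. It was -0.362 with the mean of probe sets (exact p = 0.1) and -0.163 with a pseudocount of 16. The other 7 differences between genes kept their sign in each setting they were run in, but with the mean of probe sets Plin1 minus Cidec was 0.135 and Gpd1 minus Dgat2 0.603. For genes outside the 10, Gk lay between -0.311 and 0.089 and Aqp3 between -0.512 and 0.326 without 1 array. They changed sign without day 1 replicate 3 and day 1 replicate 1, respectively. With the mean of probe sets Agpat3 was 0.004, Scd2 0.378 (limma adjusted p = 0.160) and Abhd5 0.234 (0.196). Srebf2 lay between -0.615 and -0.116 over the alternatives. The calls of Thrsp and Adipoq held in all 6 fits without 1 array and that of Slc25a1 in 0 of 6 (adjusted p up to 0.117). Cidec, Plin1, Thrsp and Adipoq on day 1, and the dim probe sets of Gpd1 and Acaca, lie near the negative control, where the signal over background limits any fold change.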
